A study of Mus musculus with 9 samples.

Results

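Slc2a6 and Neurl3 were followed across WT and AHR KO mouse colon organoids treated with FICZ or with its solvent DMSO. Both genes were chosen by their measured FICZ rise in WT, beyond the classic targets of the aryl hydrocarbon receptor (AHR), so their rise in WT is given below as a description and without a test. They are 2 of the 48795 genes in the deposited table and 2 of the 12741 genes that entered the tests (mean of at least 10 normalised counts over all libraries). Crypts from whole colon had been grown in matrigel with Wnt-3A, Noggin, Rspondin-1 and EGF (WENR, the medium that keeps colon epithelium in a stem-cell-rich state), and RNA was sequenced after 4 h with 5 nM FICZ or with DMSO. Per the study's methods, WENR also contained nicotinamide, SB202190 and an ALK5 inhibitor. There were 2 WT DMSO, 3 WT FICZ, 2 AHR KO DMSO and 2 AHR KO FICZ libraries. Per the study's methods the AHR KO organoids came from Villin-Cre Ahr fl/fl mice, in which Cre is expressed in intestinal epithelium, and the WT organoids from littermates, all on a C57BL/6 background. The study's methods call the organoids biological replicates, while the labels do not say which mouse a library came from, so the p-values measure the spread between these libraries. The age of the mice was not given in the sources used here.

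FICZ (6-formylindolo[3,2-b]carbazole), a tryptophan photoproduct, is a ligand of AHR. With its partner ARNT, the activated receptor recognises a short DNA element, the xenobiotic response element. Its best-known targets in gut epithelium are the Cyp1 enzymes that clear FICZ and the repressors Ahrr and Tiparp that damp the receptor. Slc2a6 encodes GLUT6, a member of the SLC2 family of hexose transporters that sits mainly on lysosomal membranes and is known from inflammatory macrophages. Neurl3, also called Lincr, encodes a RING-type E3 ubiquitin ligase with a Neuralized domain, first described as a gene induced by inflammatory stimuli in lung epithelium.

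The values are the authors' normalised counts, whose totals ran from 23.2 M to 25.03 M per library. From the spacing of low values these libraries held an estimated 21.5 M to 30.1 M reads. Libraries of 1 group correlated at r = 0.986 to 0.991 over the tested genes, against 0.964 to 0.983 between groups, and no pair agreed within sampling noise. The targeted gene did not fall at the gene level. Ahr stood at 787 and 858 in WT DMSO, 791, 798 and 783 in WT FICZ, 1404 and 1346 in the libraries labelled AHR KO with DMSO, and 1443 and 1387 in those with FICZ. Under DMSO it was thus higher in the libraries labelled AHR KO, by 0.74 on the log2 scale (SE 0.07, limma adjusted p = 0.000194). A count over the whole gene cannot show a deleted exon, so every genotype direction below rests on the labels. All 8 epithelium markers passed the filter, and their summed level was 331279 to 374572 in every library. Single markers within that sum were called. Of all genes tested, 15.1% were higher with FICZ in WT, and 4.83% were lower in AHR KO under DMSO. Cdx2, a transcription factor of intestinal identity, and Lgals4 were higher with FICZ in WT by 0.80 and 0.24 (limma adjusted p = 0.000268 and 0.0305), and Epcam, Cdx2 and Lgals4 were lower in AHR KO under DMSO (-0.43, -0.43 and -0.33, adjusted p = 0.00846, 0.0191 and 0.0266). The WT call of Lgals4 was lost in 9 of 20 alternatives, and none of the 3 genotype calls remained without WT DMSO replicate 2 or without AHR KO DMSO replicate 3. With FICZ, 3 of the 8 were lower in AHR KO, Epcam, Cdx2 and Lgals4 (-0.46, -1.08 and -0.46, adjusted p = 0.00145, 2.2e-05 and 0.00147), and Krt18 was higher by 0.38 (adjusted p = 0.00575), where 10.5% of all genes tested were lower and 9.48% higher. Their part in the values of Slc2a6 and Neurl3 was not tested. Of 11 leukocyte markers, 9 had a mean under 10 and the defining genes Ptprc, Lyz2, Adgre1 and Tyrobp were listed at 0 in all libraries. The other 2 passed the filter and were called in no comparison. The leukocyte list summed to 507–586 in WT DMSO, 482–535 in WT FICZ, 506–603 in AHR KO DMSO and 563–727 in AHR KO FICZ. The stroma markers summed to 59.0–87.4 in WT DMSO, 87.5–116 in WT FICZ, 21.997–37.96 in AHR KO DMSO and 41.4–41.9 in AHR KO FICZ. The only one of them that passed the filter, Pdgfrb, was at 83.7 and 55.7 in WT DMSO and 15.3 and 31.3 in AHR KO DMSO (lower, adjusted p = 0.0155), a call lost without WT DMSO replicate 2 or AHR KO DMSO replicate 1. The order of the groups in the stroma sums was that of the group means of Slc2a6 and Neurl3. The part of either marker list in those values was not tested.

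Slc2a6 lies on the minus strand of chromosome 2 (GRCm38, chr2:27021363-27027998) and Neurl3 on the minus strand of chromosome 1 (chr1:36264597-36274679), and no other annotated gene overlaps either. The stretches directly before their start sites are shown because the AHR response element can be read in them. RefSeq (GRCm38.p6) places the start of Slc2a6 at the outer end of the GENCODE gene, and the 250 bases before it were chr2:27027999-27028248. It places the start of Neurl3 at position 36273425, inside the GENCODE gene, because GENCODE also lists a longer transcript. Of the 250 bases before that start (chr1:36273426-36273675), 158 are untranslated exon in another GENCODE transcript. Therefore only 30 bases around the match, all within that exon, are shown for Neurl3 (chr1:36273496-36273525). Both are written 5′ to 3′ on the strand of the gene, in lower case, with each GCGTG, the core of the xenobiotic response element, in capitals, or CACGC where it lies on the opposite strand.
Slc2a6: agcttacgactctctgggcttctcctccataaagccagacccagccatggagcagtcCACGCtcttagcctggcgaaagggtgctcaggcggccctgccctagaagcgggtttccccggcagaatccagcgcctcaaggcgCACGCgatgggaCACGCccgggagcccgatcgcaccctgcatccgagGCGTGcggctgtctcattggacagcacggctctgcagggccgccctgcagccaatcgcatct
Neurl3: ggatatcgtcatGCGTGacagcatctaatt

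The Slc2a6 window held 4 GCGTG matches, counted on both strands. They began 193, 109 and 97 bases before the start on the opposite strand and 62 bases before it on the gene's own strand. Over 32851 RefSeq windows of the same length (27025 genes), 28.2% held at least 1 match and 0.846% held 4 or more. GCGTG itself contains a CpG pair, and these windows were not matched to that of Slc2a6 for CpG or GC content. The Neurl3 window held 1 match, beginning 88 bases before the start. The longer form TNGCGTG, which overlaps the core, occurred once in the Slc2a6 window and not in that of Neurl3 (4.10% of windows hold it). The same search found 3 GCGTG matches before Ahrr, 1 each before Cyp1a1, Cyp1b1 and Tiparp, and none in these windows of Cyp1a2, Nqo1, Ugt1a6a, Ugt1a7c and Nfe2l2. The 2 promoters also differed in makeup. The Slc2a6 window was 65.2% G or C with 20 CpG pairs and 2 CCAAT matches but no TATAAA, whereas that of Neurl3 was 50.4% G or C with 7 CpG pairs, 1 TATAAA match 39 bases before the start, no CCAAT and 1 match to the kappaB motif. The medians over all windows were 52.4% and 6 CpG pairs, and 12.4% of windows held TATAAA, while 33.8% held CCAAT and 7.25% the kappaB motif. All motifs were searched on both strands, and those other than GCGTG were chosen after these sequences had been seen. A match is a run of letters and does not show that the receptor binds there.

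The level of Slc2a6 was low in WT organoids and high once FICZ was added. It was 164 and 130 normalised counts in WT DMSO and 1545, 1238 and 1383 in WT FICZ. Every FICZ-treated WT library lay above both DMSO libraries, and the means were 147 ± 24.5 (SD, n = 2) and 1389 ± 153 (SD, n = 3), a ratio of 9.44. The fitted difference was 3.23 on the log2(value + 1) scale (SE 0.14), the 6th highest of the 12741 genes. Between libraries of the same number the ratio was 7.53 for WT 2 and 10.6 for WT 3. By level, Slc2a6 moved from place 9610 to place 3861 among the tested genes.

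Neurl3 started from a higher level, place 2370 among the tested genes, and rose by a smaller ratio to place 630. It stood at 2528 and 2198 in WT DMSO and at 6535, 6635 and 6728 in WT FICZ. The groups did not overlap, and the 3 FICZ libraries lay close together, with means of 2363 ± 233 (SD, n = 2) and 6633 ± 96.2 (SD, n = 3), a ratio of 2.81. The difference was 1.49 on the log2 scale (SE 0.06), the 62nd highest. FICZ added 1242 normalised counts of Slc2a6 and 4269 of Neurl3. The genes next to the members in that order were Gm20458 above Slc2a6 (3.72, adjusted p = 0.107 by limma, at 0 in 6 of 9 libraries) and Aldh3a1 below it (3.09, adjusted p = 0.000268), and 2010109I03Rik above Neurl3 (1.51, adjusted p = 0.0127) and the mucosal chemokine Ccl28 below it (1.49, adjusted p = 0.000656). Over all genes tested, 15.1% were called higher and 15.7% lower with FICZ in WT. Neither share bears on the members, which were picked for their rise in this comparison. In bulk RNA, more cells that express a gene and more RNA per cell cannot be told apart.

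**Figure D1:**
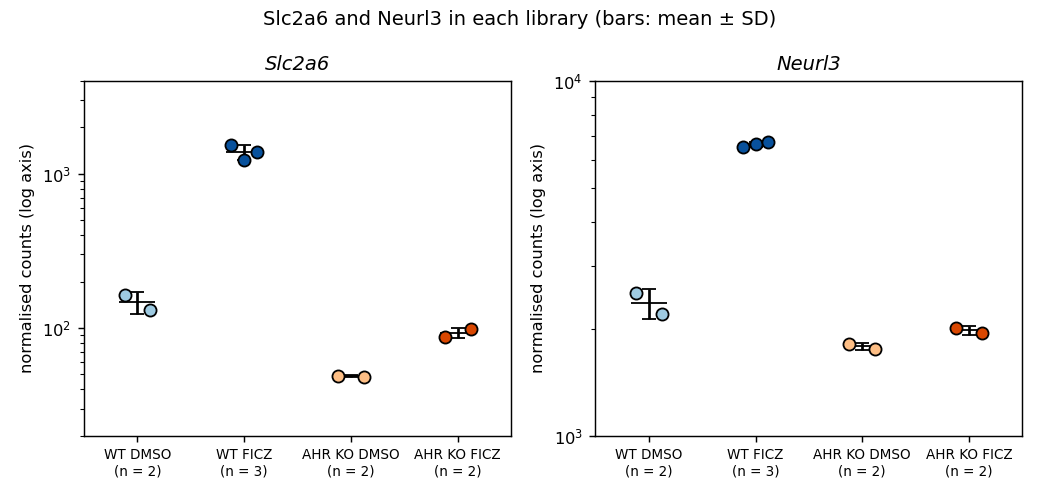
Normalised counts (log axis) of Slc2a6 and Neurl3 in each of the 9 libraries by group, with points for libraries and bars for mean ± SD. The 3 WT FICZ libraries sit at 1238 to 1545 for Slc2a6 and 6535 to 6728 for Neurl3, above all other libraries, and the AHR KO DMSO libraries sit lowest for both genes.

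Whether the response remained in AHR KO organoids is a comparison the choice of the 2 genes did not use. Slc2a6 rose there too, by far less. It was 49.1 and 48.2 in AHR KO DMSO and 88.0 and 98.5 in AHR KO FICZ. Both treated libraries lay above both untreated ones, at means of 93.3 ± 7.44 and 48.7 ± 0.614 (SD, n = 2 each), a ratio of 1.92. The difference of 0.92 on the log2 scale (SE 0.15, 95% interval 0.58 to 1.26) passed the test (limma, Benjamini-Hochberg adjusted p = 0.00418). In this comparison 10.2% of all genes tested were called higher and 9.48% lower, and Slc2a6 ranked 168th from the top. With the replicate number as a block and the trend with GC content and gene length removed, the difference was 0.63 and missed the threshold (adjusted p = 0.0623).

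Neurl3 did not pass the test in AHR KO organoids. It was 1815 and 1760 with DMSO and 2018 and 1944 with FICZ. Both treated libraries were above both untreated ones, but the ratio was 1.11, and the difference of 0.15 (SE 0.07, 95% interval -0.0026 to 0.30) had an adjusted p of 0.152 by limma. The interval leaves room for a rise of up to 0.30, so an absent response cannot be read from this p. With the GC and length trend removed the difference was 0.054 (adjusted p = 0.721).

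As a description, the log2 FICZ change was larger in WT than in AHR KO by 2.31 (SE 0.21) for Slc2a6 and by 1.34 (SE 0.09) for Neurl3. The 44.6 normalised counts of Slc2a6 that FICZ added in AHR KO were 3.59% of those added in WT, and for Neurl3 the 193 added were 4.53%. The share of the log2 change was 28.5% for Slc2a6 and 9.92% for Neurl3. These differences contain the WT rise for which the genes were chosen and carry no test. Over all genes tested, the FICZ change differed between genotypes in 0.377% toward WT and in 0.0706% toward AHR KO.

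The levels without ligand also differed by genotype. Under DMSO, the 164 and 130 counts of Slc2a6 in WT compared with 49.1 and 48.2 in AHR KO, a ratio of 3.02. The AHR KO libraries were lower by a log2 difference of -1.57 (SE 0.15, 95% interval -1.90 to -1.23, limma adjusted p = 0.000271), with no overlap between groups. Neurl3 was lower in AHR KO by a ratio of 1.32, at a log2 difference of -0.40 (SE 0.07, 95% interval -0.55 to -0.25, limma adjusted p = 0.00539). Its 2198 and 2528 counts in WT lay above the 1760 and 1815 in AHR KO. Without AHR KO DMSO replicate 3, the Neurl3 difference was -0.38 and missed the threshold (adjusted p = 0.0599). In this comparison 4.21% of all genes tested were higher and 4.83% lower in AHR KO. The test shares the WT DMSO libraries with the comparison that chose the genes. Slc2a6 in AHR KO with FICZ (88.0 and 98.5) also lay below WT without it, and Neurl3 in AHR KO with FICZ (1944 and 2018) lay below WT DMSO likewise. Under FICZ, WT exceeded AHR KO by 14.9 times for Slc2a6 and 3.35 times for Neurl3. The order of the groups was the same for both genes, WT FICZ, WT DMSO, AHR KO FICZ and AHR KO DMSO.

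Beside the AHR battery the 2 genes took different places. The battery was a list of 10 known targets, chosen for such responses. Of these 9 passed the filter, and all 9 rose with FICZ in WT (median 1.84, against -0.01 for all genes tested, of which 15.1% rose). The rise of Ugt1a6a, a glucuronosyltransferase, was lost in 5 of 20 alternatives, among them leaving out WT DMSO replicate 3 (0.47, adjusted p = 0.196) or WT FICZ replicate 1 or 3. Cyp1a1, the enzyme that degrades FICZ, went from 5.8 and 0.0 to between 6987 and 7958 normalised counts in WT and from 0.0 and 2.9 to 100 and 139 in AHR KO. Ahrr, the receptor's repressor, went from 1.5 in both WT DMSO libraries to between 427 and 568, and was at 16.9 and 17.3 in AHR KO with FICZ. Cyp1b1 rose by 2.52 in AHR KO (limma adjusted p = 0.00112). In AHR KO, 3 of 9 rose (Cyp1a1, Cyp1b1 and Ahrr) and Nfe2l2, the regulator of antioxidant genes, fell by 0.27 (adjusted p = 0.00946), where 10.2% of all genes tested rose and 9.48% fell. The Nfe2l2 call was lost without AHR KO DMSO replicate 1 (adjusted p = 0.0937) and on correction for GC content and length, without and with the replicate block (-0.19 in both, adjusted p = 0.0819 and 0.13). Tiparp, Nqo1, Aldh3a1, Ugt1a6a and Ugt1a7c did not pass there. Slc2a6 thus shared with Cyp1a1, Cyp1b1 and Ahrr a rise in AHR KO that passed the test, and Neurl3 was among those that did not pass. Under DMSO, 7 of the 9 were lower in AHR KO, as were Slc2a6 and Neurl3, with Cyp1b1 at 1632 and 1078 in WT and 34.5 and 25.4 in AHR KO. The exception that passed was Aldh3a1, an aldehyde dehydrogenase, which was higher in AHR KO by 1.68 (adjusted p = 0.017). Of all genes tested 4.83% were lower there and 4.21% higher. The 8 battery calls under DMSO fell to 4 without either AHR KO DMSO library, to 5 without either WT DMSO library, and that of Ahrr was lost in 12 of 20 alternatives.

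**Figure D2:**
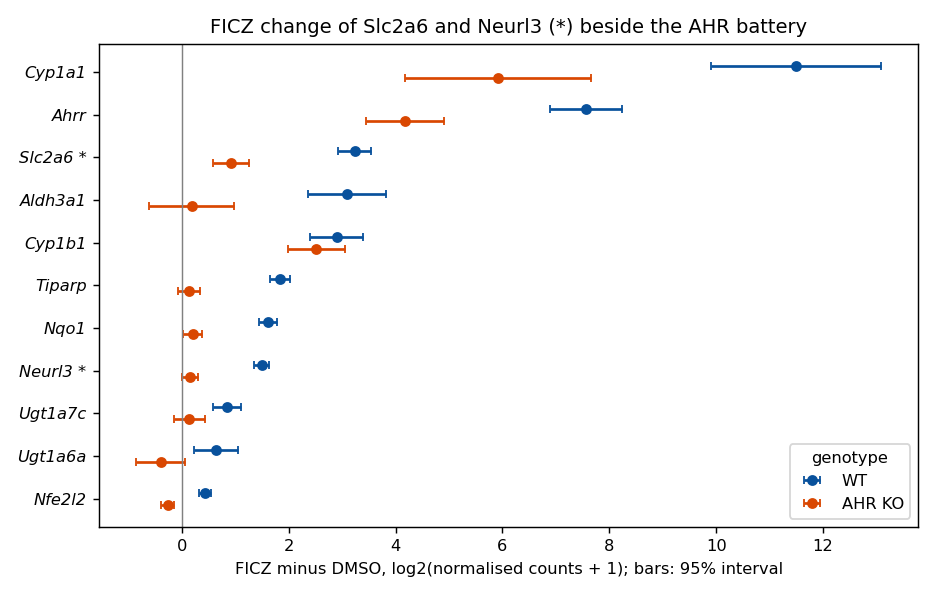
FICZ minus DMSO on the log2(normalised counts + 1) scale in WT and AHR KO for Slc2a6 and Neurl3 (marked with *) and the 9 tested genes of the AHR battery, with 95% intervals. Slc2a6 and Neurl3 were chosen by their WT rise, so their WT intervals carry no test. In WT Slc2a6 (3.23) lies between Ahrr and Aldh3a1 and Neurl3 (1.49) between Nqo1 and Ugt1a7c; the sizes for Cyp1a1 and Ahrr depend on the added 1, since their DMSO levels are near 0.

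The hexose transporters were read per kb of exon so that levels could be compared between genes. Slc2a1 (GLUT1), the main glucose carrier of the plasma membrane, was the highest of the 12 in every library. Slc2a6 made up 1.87–2.26% of the family's summed level in WT DMSO, 13.9–17.9% in WT FICZ, 0.766–0.778% in AHR KO DMSO and 1.03–1.35% in AHR KO FICZ. By level per kb it was in place 2 and 3 of the family in the WT DMSO libraries, at 51.2 and 40.4, and in place 2 in all 3 WT FICZ libraries, at 386 to 481. In AHR KO it was in place 3 or 4, behind Slc2a1, Slc2a8 and, in 3 of 4 libraries, Slc2a9. Of the 11 other transporters, 4 passed the filter, and none of these was called with FICZ in WT (median 0.17), where 15.1% of all genes tested rose and 15.7% fell. Slc2a1 was 7491 and 7118 in WT DMSO and 7433, 8016 and 8099 in WT FICZ, a difference of 0.10 (adjusted p = 0.297 by limma). In AHR KO it rose by 0.32 (adjusted p = 0.0194), the only transporter of the 4 called there, where 10.2% of all genes rose. That call was lost in 5 of 20 alternatives, among them the fit corrected for GC content and length (0.18, adjusted p = 0.254) and leaving out either AHR KO DMSO library or AHR KO FICZ replicate 1. No transporter of the 4 was called for genotype under DMSO, where 4.21% of all genes were higher and 4.83% lower. With FICZ, 1 of the 4 was lower in AHR KO, Slc2a13 (-1.84, limma adjusted p = 0.0128), where 9.48% of all genes were higher and 10.5% lower. Slc2a2, Slc2a3, Slc2a4, Slc2a5, Slc2a7, Slc2a10 and Slc2a12 were under a mean of 10. The enzymes that phosphorylate hexoses gave 2 of 7 tested genes higher with FICZ in WT, the galactokinase Galk1 (0.41, adjusted p = 0.0108) and the fucokinase Fuk (0.42, adjusted p = 0.00268). The same 2 of 7 were higher in AHR KO (0.51 and 0.56, adjusted p = 0.0108 and 0.00267), where 15.1% of all genes tested rose in WT and 10.2% in AHR KO. With the GC and length trend removed neither passed in either genotype, at 0.0099 and 0.077 in WT and 0.11 and 0.20 in AHR KO.

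Neurl3 held most of the Neuralized transcript in every library. It made up 68.9–74.2% of the summed level per kb of the 5 Neuralized genes in WT DMSO, 85.1–86.7% in WT FICZ and 65.2–67.6% in the 4 AHR KO libraries. Of the other Neuralized and Mind bomb genes, families that include the ubiquitin ligases acting on Notch ligands, 5 of 6 passed the filter. Neurl1b rose with FICZ in WT by 0.54 (SE 0.12, limma adjusted p = 0.00653), and Mib2 did in AHR KO by 0.41 (SE 0.13, adjusted p = 0.0446). The Neurl1b call was lost without WT DMSO replicate 2 (0.38, adjusted p = 0.0744) and with the GC and length trend removed (0.34, adjusted p = 0.0506; 0.28 with the replicate block as well). The Mib2 value turned to -0.01 once the trend with GC content and length was removed. Among the Notch ligands, 3 of 5 passed the filter. Jag1 fell in WT by 0.65 (limma adjusted p = 0.000477), from 1073 and 967 to 668, 669 and 613. In AHR KO Jag1 differed by -0.26, which missed the threshold (adjusted p = 0.0603), and its change did not differ between genotypes past the threshold (adjusted p = 0.372). Jag2 rose in AHR KO by 0.34 (adjusted p = 0.0125) and was higher in AHR KO under DMSO by 0.52 (adjusted p = 0.0023). The Jag2 rise turned to -0.12 without the GC and length trend. With FICZ, 2 of the 5 Neuralized and Mind bomb genes and 2 of the 3 Notch ligands were higher in AHR KO. None was lower, beside 9.48% of all genes tested higher and 10.5% lower. Neurl1a, at a mean of 33.7 normalised counts over all libraries, was 1 of them (1.58, limma adjusted p = 0.00857).

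**Figure D3:**
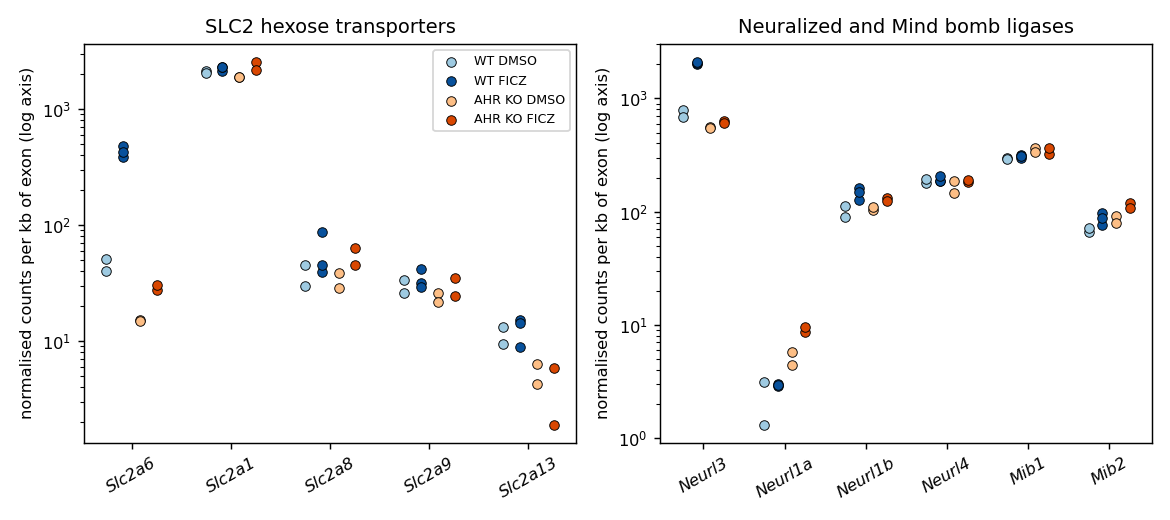
Normalised counts per kb of exon (log axis) in each library for Slc2a6 with the 4 other tested SLC2 genes and for Neurl3 with the 5 tested Neuralized and Mind bomb genes, coloured by group. Slc2a6 moves from the level of Slc2a8 and Slc2a9 in WT DMSO to 386–481 per kb in WT FICZ, below Slc2a1, and Neurl3 is the highest ligase in every library.

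The lysosome, where GLUT6 resides, was followed with 20 genes, all of which passed the filter. With FICZ in WT 7 rose, 1 fell and 12 did not pass (median 0.10), and in AHR KO 6 rose and 14 did not pass (median 0.15), where 15.1% and 10.2% of all genes tested rose. These counts were not stable, and each reached 0 in at least 1 alternative. The 8 calls in WT became 2 with the GC and length trend removed and 1 without WT DMSO replicate 2, and the 6 in AHR KO became 0 and, without AHR KO DMSO replicate 1, 1. In WT the rises were small beside that of Slc2a6 (3.23), but Slc2a6 was chosen for its rise there. In AHR KO the Slc2a6 rise was 0.92. Gaa, the lysosomal acid glucosidase, rose by 0.48 in WT and 0.65 in AHR KO (limma adjusted p = 0.00117 and 0.0018), and Tfeb, the master regulator of lysosomal genes, by 0.47 and 0.54 (adjusted p = 0.00572 and 0.00838). Corrected for the GC and length trend, Gaa was at 0.15 and 0.29 and Tfeb at -0.050 and 0.027, and neither passed. The channel gene Mcoln1 and the amino acid sensor Slc38a9 rose in WT by 0.45 and 0.36 (adjusted p = 0.0456 and 0.0356). The membrane protein gene Lamp2 fell in WT by 0.29 (adjusted p = 0.0269). The calls of Mcoln1, Slc38a9 and Lamp2 were lost in 11, 9 and 5 of 20 alternatives, and Lamp2 moved to as little as -0.093. Ctsd, a cathepsin, rose in AHR KO by 0.21 (adjusted p = 0.0279), a call lost in 7 of 20 alternatives. Under DMSO 1 of the 20 differed by genotype, the hexosaminidase gene Hexa, which was lower in AHR KO (-0.43, adjusted p = 0.0262), beside 4.83% of all genes lower and 4.21% higher. Leaving out any 1 of the 4 DMSO libraries took this call away (adjusted p up to 0.191).

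Both genes are known from inflammatory signalling, so 25 NF-kB and inflammatory response genes were read beside them, of which 22 passed the filter. In WT 5 rose with FICZ, 4 fell and 13 did not pass (median 0.04), where 15.1% of all genes tested rose and 15.7% fell. The rises included Tnfaip2 (0.79, limma adjusted p = 0.000268), the NF-kB cofactor Bcl3 (0.74, adjusted p = 0.000235), Nfkbiz (0.42, adjusted p = 0.00343) and the NF-kB inhibitor Nfkbia (0.28, adjusted p = 0.00134). Those that fell were the chemokine genes Cxcl10 (-1.25, adjusted p = 0.00217), Ccl2 (-1.09, adjusted p = 0.00982) and Cxcl2 (-0.62, adjusted p = 0.0378) and the adhesion gene Icam1 (-0.49, adjusted p = 0.0133). The 9 calls fell to 5 without WT DMSO replicate 3. Cxcl2 was lost in 8 of 20 alternatives and Ccl2 without either WT DMSO library, while Bcl3 stayed called but went to 0.25 with the GC and length trend removed and to 0.24 with the replicate block added. In AHR KO 5 rose and none fell, among them Relb (0.38), Nfkb2 (0.37), Bcl3 (0.31) and Tnf (0.28), where 10.2% of all genes tested rose. Without AHR KO DMSO replicate 1 none of the 5 passed, and without replicate 3 of that group 1 did. Without the GC and length trend Relb was at 0.14, Nfkb2 at 0.024 and Bcl3 at -0.16, none of them called. Under DMSO the direction differed from that of Slc2a6 and Neurl3 in most called genes. AHR KO was higher for 5, led by the siderophore-binding Lcn2 (2.58, adjusted p = 0.000271), Ccl20 (1.47), Ccl2 (1.37) and Tnfaip2 (1.11), and lower for Tnfaip3 (-0.38, adjusted p = 0.00463), where 4.21% of all genes tested were higher and 4.83% lower. These 6 calls fell to 3 without WT DMSO replicate 2 and to 2 without AHR KO DMSO replicate 3. Tnfaip2 was also the only gene of the 22 whose FICZ change differed between genotypes past the threshold (0.96, adjusted p = 0.00784), beside 0.377% of all genes with a larger change in WT and 0.0706% with a smaller one. That call was lost without either AHR KO DMSO library (adjusted p = 0.0565 and 0.0677). Tnfaip2 went from 3840 and 3560 to 5937, 7161 and 6112 in WT, and from 7939 and 8074 to 6689 and 7517 in AHR KO. With FICZ, 12 of the 22 were higher in AHR KO and 5 lower (median 0.32). Of all genes tested, 9.48% were higher there and 10.5% lower. These calls under FICZ were not recomputed in the alternatives.

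**Figure D4:**
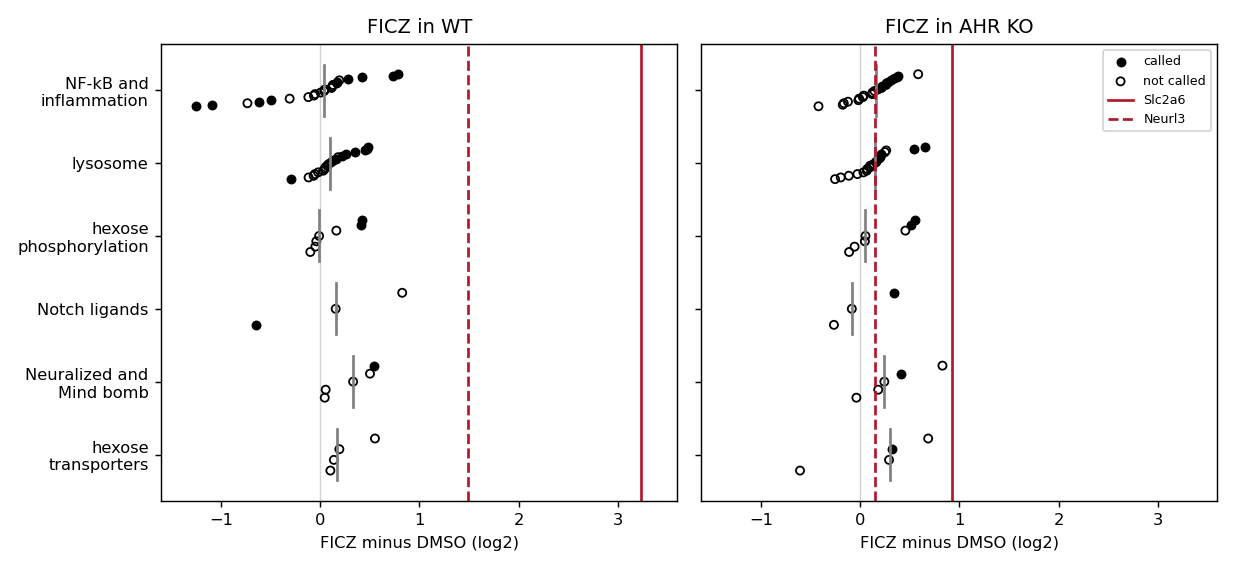
FICZ minus DMSO on the log2 scale in WT and AHR KO for the tested genes of 6 lists, with filled points for genes called by limma, open points for the rest and grey bars for list medians. Red lines mark Slc2a6 (3.23 in WT, 0.92 in AHR KO) and Neurl3 (1.49 and 0.15). In WT both lie to the right of all points, a place largely set by their choice for that rise.

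The genes around Slc2a6 did not rise with it to any like size. Slc2a6 was chosen for its rise in WT, so that difference in size was largely set there by the choice. The same holds for Neurl3 and the genes around it. Within 200 kb of its start 11 genes were tested, of which 1 rose and 3 fell with FICZ in WT, beside 15.1% and 15.7% of all genes. With FICZ in WT Surf4 rose by 0.27 (limma adjusted p = 0.00404), while the nucleolar genes Rexo4 and Surf6 and their neighbour Surf2 fell by 0.41, 0.57 and 0.38 (adjusted p = 0.00649, 0.00128 and 0.0229). Without WT DMSO replicate 3 Rexo4 and Surf2 were not called, nor was Surf2 without replicate 2 of that group. The nearest tested gene, Cacfd1, whose start lies 18.1 kb downstream, differed by 0.21 (adjusted p = 0.0587). Unlike Slc2a6, Cacfd1 was higher in AHR KO under DMSO (0.39, limma adjusted p = 0.0174), where 4.21% of all genes were higher. That call was lost in 4 of 20 alternatives. With FICZ, 2 of the 11 genes were higher in AHR KO and none lower, beside 9.48% and 10.5% of all genes. In AHR KO Surf4 rose by 0.22 and Rexo4 fell by 0.35 (adjusted p = 0.0239 and 0.0309), beside 10.2% and 9.48% of all genes. With the GC and length trend removed Surf4 was not called in WT (0.13, adjusted p = 0.131) or AHR KO (0.059, adjusted p = 0.646). The AHR KO calls of Surf4 and Rexo4 were both lost without AHR KO DMSO replicate 1 or 3, that of Surf4 also without AHR KO FICZ replicate 1 and that of Rexo4 without AHR KO FICZ replicate 3. Around Neurl3 5 genes were tested. Only the magnesium transport gene Cnnm4, 197 kb upstream, passed the test. It rose by 0.71 in WT (adjusted p = 0.000162) and 0.27 in AHR KO (adjusted p = 0.0291). Under DMSO it was lower in AHR KO (-0.41, adjusted p = 0.00622), a call lost in 1 of 20 alternatives. With FICZ Cnnm4 was lower in AHR KO as well (-0.86, adjusted p = 1.8e-05). Its rise in AHR KO missed the threshold once the GC and length trend was removed (0.10, adjusted p = 0.43), without either AHR KO DMSO library or AHR KO FICZ replicate 1 (adjusted p up to 0.173), and in 6 of 20 alternatives in all. Arid5a and Uggt1, the nearest on either side, differed in WT by -0.23 and 0.01 and were not called.

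**Figure D5:**
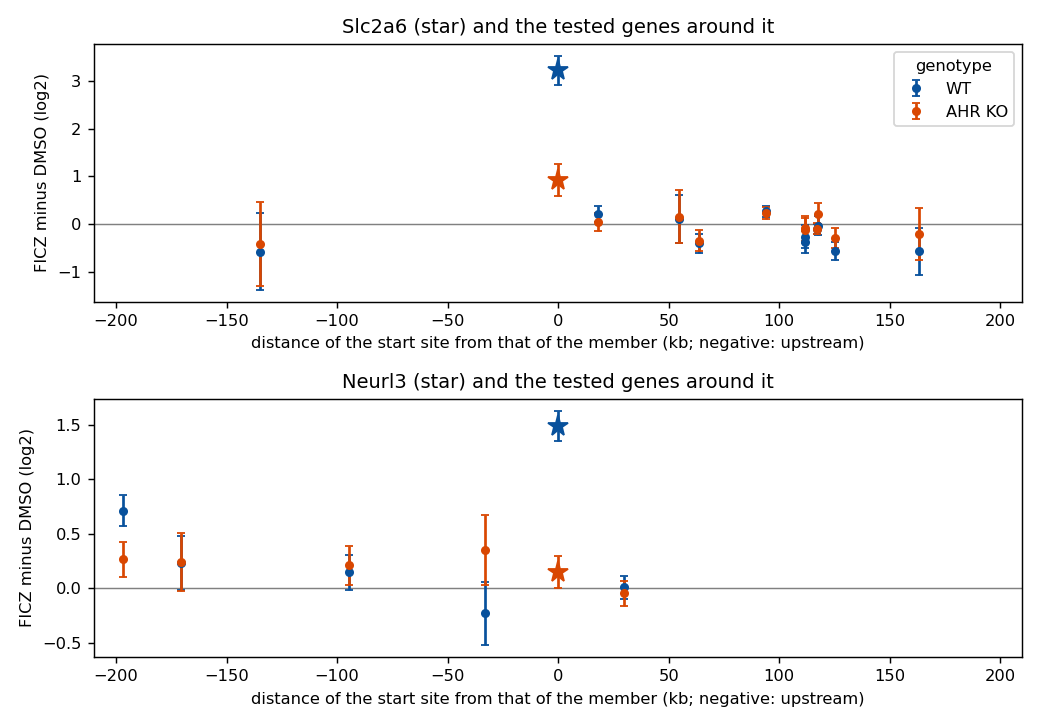
FICZ minus DMSO (log2, bars 95% interval) for Slc2a6 and Neurl3 (stars) and the tested genes within 200 kb, against the distance between start sites in kb. Both members were chosen by their WT rise, so their WT intervals carry no test and their larger size was largely set by that choice. The largest change among the neighbours of Slc2a6 in WT is -0.58 and that among the neighbours of Neurl3 is 0.71 for Cnnm4, against 3.23 and 1.49 for the members.

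Genes were also ranked by how closely their log2 values followed each member over the 9 libraries, among 10975 genes with a mean of at least 50. The libraries of a group share genotype and treatment, so these correlations describe a shared order of 4 groups and carry no p. The WT rise for which both members were chosen also enters them. Likeness of the members to each other, and to other genes that rose in WT, was thus largely set by that choice. Closest to Slc2a6 were the receptor gene Erbb3 (r = 0.994), Plekha6 (0.993), the spermine oxidase gene Smox (0.993), the fatty aldehyde dehydrogenase gene Aldh3a2 (0.992) and, in place 5, Neurl3 (0.991). Closest to Neurl3 were Tiparp (0.996), Cldnd1 (0.995), Tns4 (0.994), Chp1 (0.994) and Etv3 (0.993), with Slc2a6 in place 9. The pattern was shared, but not the size around Slc2a6, and around Neurl3 Tiparp had a larger ratio than the member. The ratio of FICZ to DMSO in WT was 1.36 for Erbb3, 1.40 for Plekha6, 1.93 for Smox and 1.30 for Aldh3a2, against 9.44 for Slc2a6, and 3.59 for Tiparp, 2.33 for Cldnd1, 1.34 for Tns4, 1.41 for Chp1 and 1.53 for Etv3, against 2.81 for Neurl3. In AHR KO these ratios were 1.002 to 1.30 for the like genes other than the members.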

How the data were processed

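The authors deposited 1 table of normalised counts per gene and library (a signal, not whole counts) for the 9 libraries. Per the submitters' processing notes STAR 2.5.2a, RSEM 1.2.31 and DESeq2 1.16.1 were used with GRCm38. The scaling step and the annotation release behind this RSEM table are not given in the sources used here. The study's RNA methods instead name the UCSC knownGene annotation and raw counts from summarizeOverlaps. Of 48795 Ensembl IDs, 48435 (99.3%) matched GENCODE M21, from which symbols and exon lengths came. Between 50.1% and 61.2% of values under 20 lay within 0.05 of whole multiples of a common step, so reads could not be recovered and no count model was run.

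Values were tested as log2(value + 1) with limma 3.58.1 (R 4.3.3, trended empirical Bayes, 4 group means over 9 libraries) in the 12741 genes with a mean of at least 10. Calls are at a Benjamini-Hochberg adjusted p under 0.05. The step was tested on simulated data. Slc2a6 rested on about 49.5 to 1406 reads per library and Neurl3 on about 1805 to 6727. The other scalings tried included quantile normalisation. The named genes were both members, up to 4 called genes per list and comparison and any a sentence on a list needed, the AHR battery, the 5 most alike genes, tested genes within 200 kb and the genes next in the WT order. The members and lists were chosen with earlier results of these data known. Promoter sequences are from RefSeq GRCm38.p6.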

Additional observations from a re-analysis of the deposited data

Results flagged for a closer look

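For 5 of the 9 AHR battery genes tested and 1 of the 22 NF-kB and inflammatory response genes, the FICZ change on the log2 scale differed between WT and AHR KO by the test of the difference itself (limma, interaction term, Benjamini-Hochberg adjusted over 12741 genes, of which 57 were called, 0.377% with a larger value in WT and 0.0706% with a smaller one). The change was larger in WT for Tnfaip2 by 0.96 (adjusted p = 0.00784), for Ahrr by 3.39 (adjusted p = 0.01), for Tiparp by 1.71 (adjusted p = 0.000155), for Nqo1 by 1.41 (adjusted p = 0.000257), for Aldh3a1 by 2.91 (adjusted p = 0.0356) and for Nfe2l2 by 0.71 (adjusted p = 0.00206). Tnfaip2 and Nfe2l2 are the ones among them whose values moved in opposite directions, up with FICZ in WT and down in AHR KO. The Nfe2l2 fall in AHR KO passed the test (-0.27, adjusted p = 0.00946), though not in 3 of 20 alternatives (adjusted p up to 0.13), and the Tnfaip2 value there did not (-0.18, adjusted p = 0.202). With 2 or 3 libraries per group, no group was large enough for a check of single outlying libraries. The Tnfaip2 call was lost without AHR KO DMSO replicate 1 (0.97, adjusted p = 0.0565) or replicate 3 (0.95, adjusted p = 0.0677). The Ahrr call was lost in 5 of the alternatives, which were leaving out WT FICZ replicate 1 or 3, the replicate block with and without the GC and length correction, and a pseudocount of 0.1 (0.78, adjusted p = 0.871), and the Aldh3a1 call was lost in 8 of the alternatives (adjusted p up to 0.191). Those of Tiparp, Nqo1 and Nfe2l2 were kept in each alternative that gave an interaction value.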

How the results depend on the processing

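The values of Slc2a6 and Neurl3 were recomputed under 20 alternatives: pseudocounts of 0.1 and 10, keeping all low genes, a minimum mean of 100, median-ratio rescaling, quantile normalisation, only the groups compared (which gives no interaction value), robust eBayes, a replicate block, a correction for GC content and gene length, both together, and leaving out each library in turn. Leaving 1 library out of a group of 2 left a single library, so the spread in that fit came from the other groups. No value of either gene changed sign. Removing the GC and length trend gave WT rises of 2.96 for Slc2a6 and 1.41 for Neurl3, and with the block added 2.89 for Slc2a6. With both, the Slc2a6 rise in AHR KO was 0.63 (adjusted p = 0.0623), against 0.63 (adjusted p = 0.0346) with the trend alone removed. The cause was not tested. Leaving out 1 library gave WT rises of 3.06–3.40 (Slc2a6) and 1.39–1.59 (Neurl3), differences between genotypes in that rise of 2.14–2.48 and 1.24–1.44, AHR KO rises of 0.84–1.003 (all called) and 0.12–0.17 (none called), and genotype differences under DMSO of -1.74 to -1.40 (all called) and -0.50 to -0.30. The last missed the threshold without AHR KO DMSO replicate 3 (-0.38, adjusted p = 0.0599). Over all alternatives the adjusted p of the AHR KO rise ran from 0.0036 to 0.0623 for Slc2a6 and from 0.0963 to 0.721 for Neurl3.

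Libraries of the same number did not deviate together (r = 0.035 to 0.050), so the numbers were not taken as pairs. With the replicate block the AHR KO rises were 0.92 (adjusted p = 0.0087) and 0.15 (adjusted p = 0.167), and 2417 genes were called with FICZ in AHR KO, against 2509 without it.

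Of 88 calls of list genes and neighbours, 30 were kept in every alternative that gave a value and 58 were lost in at least 1. Calls of these genes for AHR KO against WT under FICZ were not recomputed and are not among the 88. Kept were, outside the AHR battery and the markers, Jag1, Nfkbia, Nfkbiz, Bcl3, Tnfaip2, Cxcl10, Cnnm4 and Surf6 with FICZ in WT and Jag2, Tnfaip2 and Lcn2 for genotype under DMSO. Values that turned sign did so on removal of the GC and length trend, without and with the block: Tfeb in WT (-0.050 and -0.00054), and in AHR KO Mib2 (-0.014 both), Jag2 (-0.12 both), Ctsz (-0.060 both) and Bcl3 (-0.16 both), none of them called. That removal took the number of genes called from 3928 to 2309 in WT and from 2509 to 693 in AHR KO (1721 and 528 with the block). Leaving out 1 library gave 1990–4133 in WT, 420–2961 in AHR KO, 23–78 for the interaction (57 in all libraries) and 389–1465 for genotype under DMSO (1153). With 2 libraries in 3 of 4 groups, small changes such as that of Neurl3 in AHR KO are at the limit of what these data resolve.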
